A study of Mus musculus with 6 samples.

Results

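Lhx1, Emx2, Elf5 and Sim1 encode 4 transcription factors of the nephric duct and neighbouring intermediate mesoderm, and they make up 4 of the 18193 genes measured in this series. They were taken as every probe set that the platform annotation assigns to exactly 1 of the 4 symbols, which gave 7 probe sets, with 1 for Emx2 and 2 for each of the other 3 genes. The genes were chosen by their log2 difference between Pax2 null and heterozygote cells on these same 6 arrays, so that difference is given below as a description, without a test. The 6 samples are RNA from EGFP-positive cells that were isolated by flow sorting after the region of the intermediate mesoderm had been dissected from E11.5 mouse embryos and dissociated. Heterozygotes (n = 3) are Pax2 heterozygote embryos titled EGFP/+, and nulls (n = 3) are Pax2 null embryos titled EGFP/EGFP, so every sample carries EGFP and no wild-type sample is included. The nulls carry EGFP on both alleles, so loss of Pax2 and dose of EGFP cannot be told apart. Whether each sample was 1 embryo or a pool is not given in the sources used here, and the spread between arrays may be partly technical.

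The nephric duct is an epithelial tube that grows through the intermediate mesoderm and sends out the ureteric bud, from which the collecting ducts form. Pax2 is a paired-domain transcription factor active in the duct, in the mesenchyme around it, and in other tissues such as the spinal cord. Lhx1 is a LIM-homeodomain factor needed for the duct to form and extend, and it acts again in early nephrons. Emx2 is a homeodomain factor of the duct, the ureteric bud and the coelomic epithelium, and kidneys and gonads fail to form without it. Elf5 is an Ets factor known from mammary and trophoblast cells and from collecting duct epithelium. Sim1 is a bHLH-PAS factor known best from the hypothalamus and from ventral spinal interneurons, and it binds DNA together with Arnt or Arnt2.

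The stretches of 250 bases that precede the annotated starts are shown first, because Lhx1 shares its start region with a second transcript whose level was also measured. All 4 genes matched the RefSeq promoter table (build GRCm38.p6), Elf5 with 2 start sites. The Lhx1 stretch is chr11:84525535-84525784 (minus strand), that of Emx2 is chr19:59458440-59458689 (plus strand) and that of Sim1 is chr10:50895401-50895650 (plus strand). The Elf5 stretches are chr2:103411848-103412097 and chr2:103423818-103424067, both on the plus strand. Capitals mark the letters CCAAT on either strand, and each stretch runs 5′ to 3′ on the strand of its gene.
Lhx1: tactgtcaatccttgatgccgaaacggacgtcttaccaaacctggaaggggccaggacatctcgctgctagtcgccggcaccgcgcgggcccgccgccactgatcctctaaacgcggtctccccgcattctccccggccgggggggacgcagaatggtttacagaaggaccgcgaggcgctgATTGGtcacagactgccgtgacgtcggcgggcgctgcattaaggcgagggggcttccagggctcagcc
Emx2: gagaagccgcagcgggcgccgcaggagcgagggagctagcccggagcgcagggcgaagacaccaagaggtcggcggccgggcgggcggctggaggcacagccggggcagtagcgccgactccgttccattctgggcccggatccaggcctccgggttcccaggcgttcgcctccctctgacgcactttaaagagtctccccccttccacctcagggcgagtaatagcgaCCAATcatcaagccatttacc
Elf5 first start: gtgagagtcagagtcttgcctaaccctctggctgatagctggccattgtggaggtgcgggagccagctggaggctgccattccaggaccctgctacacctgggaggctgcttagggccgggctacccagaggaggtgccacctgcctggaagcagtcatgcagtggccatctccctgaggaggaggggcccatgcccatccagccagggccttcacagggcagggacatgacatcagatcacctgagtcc
Elf5 second start: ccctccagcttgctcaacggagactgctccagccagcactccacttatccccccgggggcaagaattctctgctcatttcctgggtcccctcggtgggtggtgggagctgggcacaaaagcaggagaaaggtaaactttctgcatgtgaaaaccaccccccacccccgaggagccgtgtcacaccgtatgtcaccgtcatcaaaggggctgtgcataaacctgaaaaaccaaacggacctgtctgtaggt
Sim1: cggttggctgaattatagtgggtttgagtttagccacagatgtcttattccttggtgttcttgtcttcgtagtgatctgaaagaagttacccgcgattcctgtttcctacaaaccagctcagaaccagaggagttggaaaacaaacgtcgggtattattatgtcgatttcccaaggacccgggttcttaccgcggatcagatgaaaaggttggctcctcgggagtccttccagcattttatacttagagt
The noncoding transcript Lhx1os starts 126 bases from Lhx1 and runs the other way, so that its first 125 bases lie within the printed Lhx1 stretch. CCAAT was found in the Lhx1 stretch, on the other strand and beginning 68 bases before the start, and in the Emx2 stretch, beginning 21 bases before the start. On either strand, 33.8% of the 32851 stretches of the same length hold it. None of the 5 stretches held GTCACGC, a core bound by Pax2-type paired domains (1.78% of all stretches), TAATTA, a homeodomain core (4.84%), or ACGTG, the core bound by Sim and Arnt proteins (16.6%). Their share of G and C was 64.8% for Lhx1, 67.2% for Emx2, 62.8% and 56.8% for Elf5 and 45.6% for Sim1, against a median of 52.4% over all stretches.

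Values below are log2 expression per probe set, so a difference of 1 is 2-fold, and changes are null minus heterozygote. All 7 probe sets of the 4 genes were lower in null, and in all 7 the highest null array lay below the lowest heterozygote array, as did 6.6% of the 34945 probe sets with 1 symbol. In the comparison of the genotypes across all genes (limma, Benjamini-Hochberg adjusted p under 0.05), 1.39% of genes passed, 0.583% lower and 0.808% higher in null. The 3 genes Lhx1, Elf5 and Sim1 were among those and Emx2 was not, a count fixed by the way the genes were chosen. The median change over all genes was -0.02. In sorted cells measured in bulk, fewer cells of a type and less RNA per cell cannot be told apart.

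**Figure D1:**
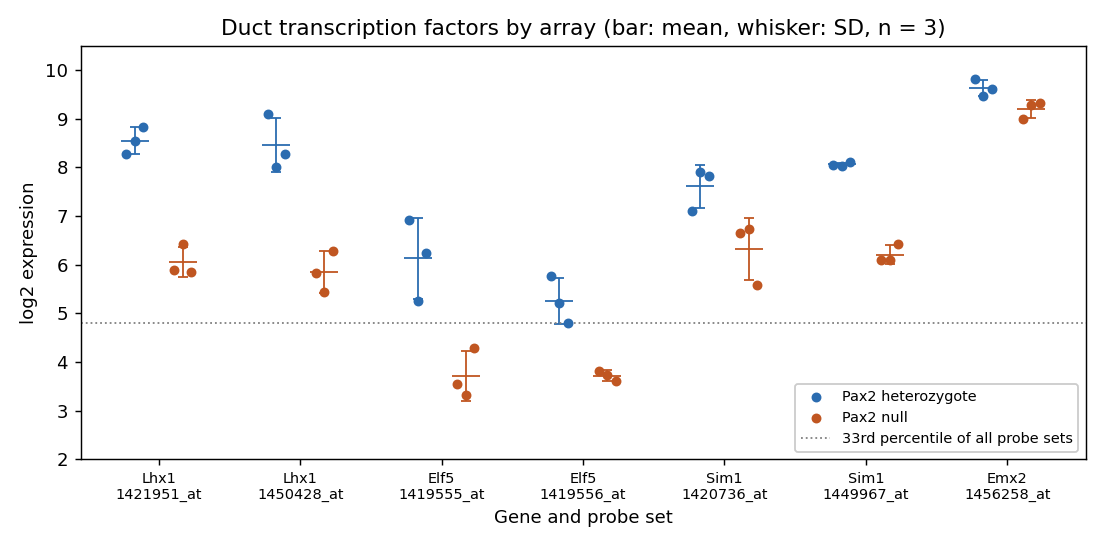
Log2 expression of each probe set of Lhx1, Elf5, Sim1 and Emx2 in the 3 heterozygote and 3 null arrays, with group means (bars) and SDs (whiskers), and the 33rd percentile of all probe sets as a dotted line at 4.81. No probe set has overlapping groups, the Lhx1 probe sets leave the widest gaps, and both Elf5 probe sets lie below the dotted line in every null array.

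Lhx1 was the member with the largest difference. Its probe set 1421951_at, the brighter one by a small margin, read 8.27, 8.55 and 8.83 in the heterozygotes and 5.90, 6.42 and 5.85 in the nulls. The change was -2.50 ± 0.22 (SE), a 5.64-fold lower level in null, and 1.86 separated the lowest heterozygote from the highest null. The second probe set, 1450428_at, read 9.10, 8.02 and 8.28 against 5.83, 5.43 and 6.29, a change of -2.61 ± 0.33. The 2 probe sets thus gave nearly the same difference, although heterozygote 1 was the lowest heterozygote on one and the highest on the other. Both kept a level above the 33rd percentile of all probe sets (4.81) in every null array. Of all 18193 genes, 19 had a change more negative than that of Lhx1.

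Elf5 had a difference of similar size with more spread between arrays. Its brighter probe set, 1419555_at, read 6.91, 5.25 and 6.24 in the heterozygotes and 3.54, 3.31 and 4.29 in the nulls. The change was -2.42 ± 0.42, a 5.35-fold lower level in null, with an SD of 0.83 among the heterozygotes. On 1419556_at the values were 5.76, 5.22 and 4.81 against 3.82, 3.74 and 3.61, a change of -1.54 ± 0.25. The heterozygote values were spread over more than a log2 unit on the first probe set, with heterozygote 1 highest on both. Every null value of both probe sets lay under 4.81, where arrays of this kind compress differences, so the size of the Elf5 change is the least certain of the 4. Without heterozygote 1 the change was -2.03, and without heterozygote 2 it was -2.86.

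Sim1 had the tightest heterozygote values. Its brighter probe set, 1449967_at, read 8.06, 8.04 and 8.11 in the heterozygotes and 6.10, 6.10 and 6.43 in the nulls. The change was -1.86 ± 0.16, a 3.63-fold lower level in null. On 1420736_at the values were 7.10, 7.90 and 7.83 against 6.65, 6.73 and 5.58, a change of -1.29 ± 0.35 with a gap of 0.37 between the groups. The second probe set therefore gave a smaller and noisier difference in the same direction, and the mean of both was -1.57. Null 3 was the highest null array on one probe set and the lowest on the other.

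Emx2 stood apart from the other 3 in the size of its difference. Its only probe set, 1456258_at, read 9.81, 9.47 and 9.61 in the heterozygotes and 9.00, 9.29 and 9.32 in the nulls, a change of -0.43 ± 0.17. The level in null was 1.34-fold lower, the gap between the groups was 0.15, and 1242 genes had a more negative change. Emx2 remained well above the 33rd percentile in every null array.

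The labels give no batch. The 6 arrays were matched into 3 pairs by the 14 hybridization control probe sets, which read bacterial transcripts added to each sample. Such matching returns 3 pairs whatever the values. Each pair held 1 heterozygote and 1 null, a pairing that is not in the labels. Pair 1 was heterozygote 1 with null 3, pair 2 heterozygote 2 with null 1, and pair 3 heterozygote 3 with null 2. The mean log2 level of bioB, one of the added transcripts, was 10.52 and 10.55 in pair 1. It was 7.81 and 8.20 in pair 2, and 7.24 and 7.23 in pair 3. Within these pairs the Lhx1 difference was -2.42, -2.65 and -2.42 on 1421951_at and -2.81, -2.18 and -2.85 on 1450428_at. For Elf5 it was -2.61, -1.71 and -2.93 on 1419555_at and -2.15, -1.40 and -1.07 on 1419556_at. For Sim1 it was -1.63, -1.94 and -2.01 on 1449967_at and -1.52, -1.25 and -1.10 on 1420736_at, and for Emx2 it was -0.49, -0.47 and -0.32. No pair gave the largest difference throughout, and the sign within pairs follows from groups that do not overlap.

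**Figure D2:**
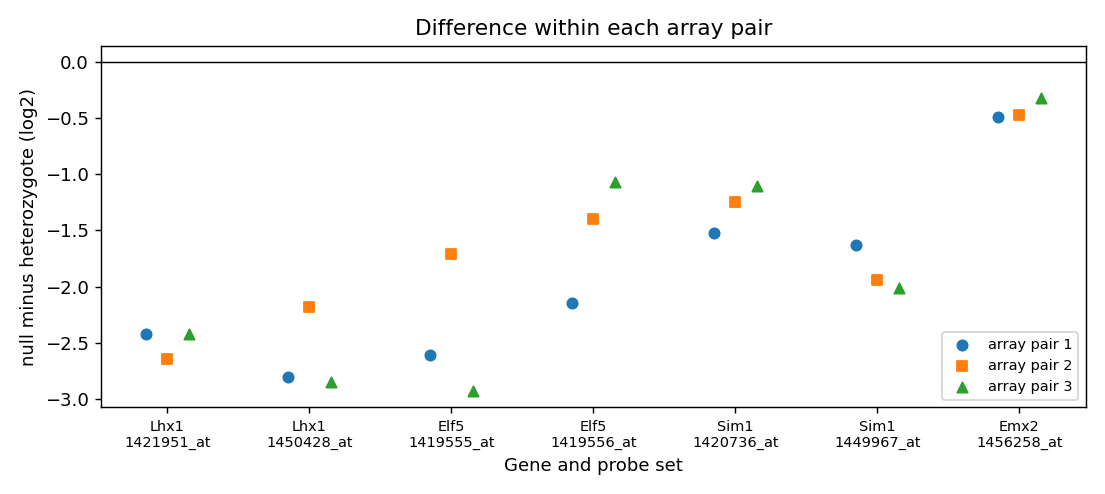
Null minus heterozygote log2 value within each of the 3 array pairs, for the 7 probe sets of Lhx1, Elf5, Sim1 and Emx2. All points lie below 0, from -0.32 for Emx2 in pair 3 to -2.93 for Elf5 in pair 3.

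The profiles of the 4 genes over the 6 arrays were set side by side by the root mean square difference of log2 values, each gene centred on its own mean, where a smaller value is a closer pattern. Lhx1 and Sim1 were closest (0.44), followed by Elf5 and Sim1 (0.58) and Lhx1 and Elf5 (0.72). Emx2 was 0.73 from Sim1, 1.07 from Lhx1 and 1.10 from Elf5. These values share the genotype difference that chose the genes and describe the arrays only. They rest on the probe set with the highest mean for each gene, and the order of the arrays differed between the probe sets of Lhx1 and of Sim1.

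By the same measure, the 5 closest genes above the 33rd percentile were taken for the 3 members whose own SD over the arrays was at least 1. For Lhx1 they were Pde7b (0.30), a phosphodiesterase gene, Ppp1r16b (0.34), H2-DMb2 (0.35), the potassium channel gene Kcnj16 (0.35) and Lrp2 (0.36), which encodes the endocytic receptor megalin. For Elf5 they were Rhcg (0.24), an ammonia transporter of the collecting duct, Plac8 (0.29), Tmed6 (0.32), the sterol transporter gene Abcg5 (0.35) and Scnn1g (0.36), a subunit of the epithelial sodium channel. Like Elf5, all 5 had heterozygote 1 as their highest array, with Rhcg at 7.65, 6.31 and 6.78 in the heterozygotes and 4.55, 3.98 and 4.69 in the nulls. For Sim1 they were Lrrc4 (0.07), Stk32b (0.13), Btbd11 (0.13), Prr5l (0.17) and Gdnf (0.17), the mesenchymal ligand of the duct receptor Ret. Lrrc4 read 8.47, 8.35 and 8.61 in the heterozygotes and 6.44, 6.51 and 6.88 in the nulls, so that it followed the brighter Sim1 probe set array by array. It did not follow the other Sim1 probe set, 1420736_at, on which null 3 was the lowest null array (5.58). Since these genes were selected for resembling the members, their own change is no further evidence.

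The genes next to the members on their chromosomes were examined to see how far the lower level extended. This set was added after the data were seen, and gene order was taken from the RefSeq table (GRCm38.p6). Of the 16 genes that are the nearest or second nearest measured gene on either side, 0 passed (limma over all genes), 5 had an unadjusted p under 0.05, as did 9.73% of all genes, and 2, Lhx1os and Ehf, passed with the array pair as a block, where 4.56% of all genes pass. Lhx1os, which shares the printed start region with Lhx1 on chromosome 11, read 7.59, 7.50 and 6.89 in the heterozygotes and 6.34, 4.94 and 5.77 in the nulls. Its groups did not overlap, and its change was -1.64 ± 0.36 (limma, adjusted p = 0.0875, or 0.0117 with the array pair as a block, between 0.0117 and 0.272 over the alternatives). The next genes, Mrm1 beyond Lhx1os and Aatf on the other side, had changes of -0.10 ± 0.29 and -0.31 ± 0.24 and overlapping groups.

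Emx2 also has a noncoding antisense neighbour, Emx2os, which read 9.11, 9.17 and 9.22 in the heterozygotes and 9.14, 9.09 and 9.26 in the nulls. Its groups overlapped and its change was 0.00 ± 0.14 (limma, adjusted p = 0.999, and at least 0.952 under each alternative). The labels describe double-stranded labelled cDNA, so whether these arrays told the strands apart is not known. On the other side of Emx2, 2700089I24Rik had a change of -0.48 ± 0.17, and its groups did not overlap. All its arrays lay under 4.81, where differences are compressed. Beyond it, Rab11fip2 had a change of -0.45 ± 0.38 with overlapping groups. Pdzd8, beyond Emx2os, had one of 0.03 ± 0.16, also with overlapping groups. Beside Elf5 on chromosome 2 lies Ehf, an Ets factor of the same subfamily, with BC016548 between them. BC016548 had a change of 0.02 ± 0.19, and Cat, which encodes catalase on the other side of Elf5, one of 0.07 ± 0.23. Around Sim1 on chromosome 10, Ascc3 had a change of -0.18 ± 0.22 and Fam162b one of 0.50 ± 0.19. Beyond them, Grik2 had a change of -0.47 ± 0.17 and Gprc6a one of 0.08 ± 0.15. The groups of Fam162b and Grik2 did not overlap.

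**Figure D3:**
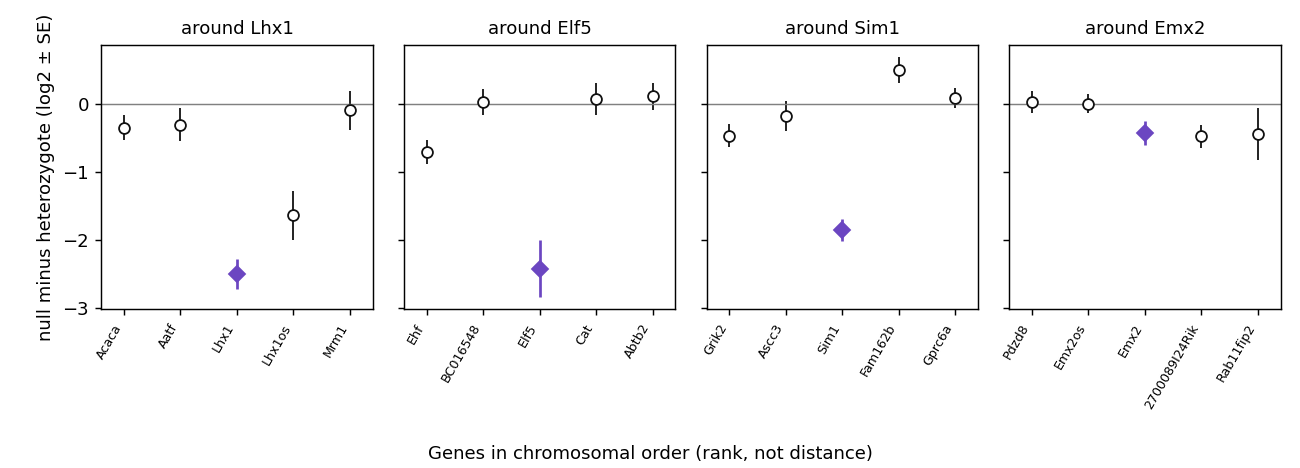
Change (null minus heterozygote, log2, with SE) of each member (diamond) and of the 2 nearest measured genes on each side (open circles), in chromosomal order. Beside Lhx1 at -2.50 only Lhx1os at -1.64 lies below -1, and the genes next to Elf5, Sim1 and Emx2 lie between -0.71 and 0.50.

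The relatives and partners of the 4 factors were compared between genotypes from lists that leave the members out. LIM-homeodomain factors share the DNA-binding type of Lhx1, and 0 of 11 others passed (limma over all genes), with 0 at an unadjusted p under 0.05 and a median change of 0.13. Lhx5, the closest relative of Lhx1, had a mean of 4.43 ± 0.06 in heterozygotes and 4.57 ± 0.14 in nulls (SD, n = 3), under the 33rd percentile, with a change of 0.13 ± 0.15. Lmx1b, the brightest of the family list, had a change of -0.43 ± 0.22. The largest positive change in the list, that of Lhx6, was 1.01 ± 0.45 with overlapping groups (limma, adjusted p = 0.533, between 0.193 and 0.825 over the alternatives). No relative of Lhx1 thus showed an opposite change that passed. Since 6 of the 11 had a mean under the 33rd percentile, a change in those could have gone unseen.

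The list of LIM cofactors holds Ldb, Ssbp and Lmo genes and Rlim, which do not all act in the same way on LIM-homeodomain factors. Of its 10 genes 1 rose, with a median change of 0.27 and 3 higher at an unadjusted p under 0.05. Ldb2, a LIM-domain-binding adaptor, read 7.71, 7.16 and 7.94 in the heterozygotes and 9.26, 9.03 and 8.95 in the nulls. The groups were well separated, with a change of 1.47 ± 0.22 (limma, adjusted p = 0.0227, range over the alternatives 0.0171 to 0.124), and all 3 of its probe sets were higher. The call was lost without heterozygote 2, without any 1 of the 3 null arrays, and with the mean over probe sets. Ldb1, the main partner of Lhx1, had a difference of 0.47 ± 0.19, which was not past the threshold (limma, adjusted p = 0.478, range over the alternatives 0.0772 to 0.898).

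Emx1, the only other Emx gene, had a change of 0.03 ± 0.19. In the Elf and ESE subfamily of Ets factors, 0 of 5 others passed, 1 was lower at an unadjusted p under 0.05 (4.65% of all genes), and the median change was -0.19. That gene was Ehf, an epithelial Ets factor, which read 6.36, 6.23 and 6.65 in the heterozygotes and 5.61, 5.77 and 5.73 in the nulls. The groups did not overlap, the change was -0.71 ± 0.17 (limma, adjusted p = 0.113, or 0.0321 with the array pair as a block, between 0.0321 and 0.355 over the alternatives), and 3 of its 4 probe sets had this sign. Elf3, a further epithelial member, had a change of -0.28 ± 0.23, and Elf2, the brightest, one of 0.19 ± 0.22.

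Among bHLH-PAS factors, 0 of 15 others passed, 2 were higher at an unadjusted p under 0.05, and the median change was 0.05. With the array pair as a block 1 of them, Ahr, passed. The Sim1 partners Arnt and Arnt2 had changes of 0.18 ± 0.15 and 0.18 ± 0.29 and overlapping groups. Sim2, the only close relative of Sim1, had a change of 0.03 ± 0.25, and its 2 probe sets differed in sign. Hif1a, the brightest of the list, had a change of 0.06 ± 0.23.

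**Figure D4:**
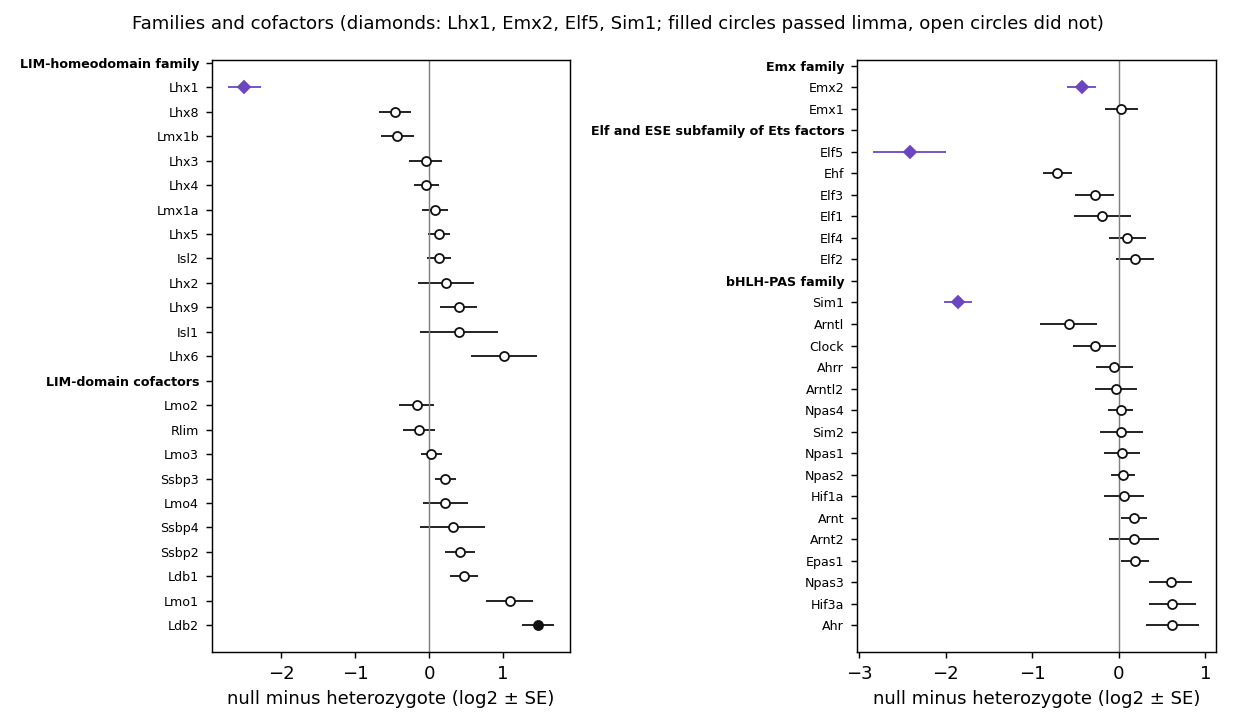
Change (null minus heterozygote, log2, with SE) of the members (diamonds) and of the other genes of their families and cofactors (circles, filled where limma's adjusted p passed). Lhx1, Elf5 and Sim1 lie at -2.50, -2.42 and -1.86, while the others lie between -0.71 for Ehf and 1.47 for Ldb2, the only filled circle.

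The duct lists give the setting of these values. Of 14 other measured duct transcription factors, Gata3 fell and Gata2 rose, 12 did not pass, and the median change was -0.70, against -0.02 over all genes. At an unadjusted p under 0.05 (limma), 7 of the 14 were lower and 3 higher, against 4.65% and 5.08% of all genes. Gata3, a zinc finger factor that acts with Pax2 in the duct, read 10.13, 9.60 and 9.84 in the heterozygotes and 8.13, 8.58 and 8.65 in the nulls. Its change of -1.40 ± 0.21 passed (limma, adjusted p = 0.0215, range over the alternatives 0.00639 to 0.0945), and was smaller in size than those of Lhx1, Elf5 and Sim1. The Gata3 call did not hold once heterozygote 2, heterozygote 3, null 1 or null 2 was left out. Gata2, its close relative, rose by 1.21 ± 0.15 (limma, adjusted p = 0.0111, range over the alternatives 0.00920 to 0.0591), a call lost without heterozygote 2 or null 1. With the array pair as a block, 6 of these factors fell and 3 rose. Tfcp2l1 and Sox8 are named after their values were seen. The Tfcp2l1 change of -2.25 ± 0.48, with groups that did not overlap, was larger in size than that of Sim1 (-1.86). It did not pass (limma, adjusted p = 0.0839, between 0.00529 and 0.248 over the alternatives), but did with the array pair as a block and without null 3. Sox8 changed by -1.63 ± 0.38 and did not pass. Of the 14 factors, 10 had a negative and 4 a positive change, and the share of negative changes over all genes was not counted.

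Of 18 other signalling and structural genes of the duct, 3 fell, 0 rose and 15 did not pass, with a median change of -0.24. At an unadjusted p under 0.05 (limma), 7 of the 18 were lower and 1 higher, against 4.65% and 5.08% of all genes. The 3 that passed were the calcium-binding protein gene Calb1 (-5.97 ± 0.53), the Gdnf receptor gene Ret (-3.37 ± 0.48) and the receptor tyrosine kinase gene Ros1 (-2.50 ± 0.29). The 4 Calb1 probe sets ranged from -5.97 to -1.38, and their mean gave -3.82. In null, 2 of 3 Calb1 arrays and all 3 Ros1 arrays lay under the 33rd percentile, so the sizes of these changes are uncertain. Calb1 and Ros1 passed under every alternative, except that Ros1 was not tested where dim genes were left out, and Ret was lost without heterozygote 2, heterozygote 3 or null 1. Epithelial adhesion and keratin genes of the same list, named after their values were seen, differed among themselves. Epcam had a change of -0.06 ± 0.16 and Krt8 one of -0.05 ± 0.25. Those of Krt18 (-0.05 ± 0.25) and the claudin genes Cldn3 (-0.14 ± 0.24), Cldn4 (0.02 ± 0.43) and Cldn7 (-0.12 ± 0.22) were also near 0. The changes of Dsp (0.72 ± 0.35) and Krt19 (1.21 ± 0.25) were positive. Dsp had overlapping groups and did not pass (limma, adjusted p = 0.593, between 0.0783 and 0.942 over the alternatives). The cadherin genes Cdh16 and Cdh1 had changes of -1.28 ± 0.28 and -0.29 ± 0.30. Cdh16 did not pass (limma, adjusted p = 0.0888, between 0.00909 and 0.263 over the alternatives), though its groups did not overlap and it passed with the array pair as a block. Over the whole list, 15 of the 18 genes had a negative change and 3 a positive one. The negative changes of Epcam, Krt8, Krt18, Cldn3, Cldn7, Wnt9b and Cdh1 were smaller than their SE. The share of negative changes over all genes was not counted. Krt19 did not pass (limma, adjusted p = 0.0728, between 0.00884 and 0.247 over the alternatives), though its groups did not overlap. It passed without heterozygote 1, with the mean over probe sets and with the array pair as a block. With the array pair as a block, 6 genes of this list fell and 1 rose.

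**Figure D5:**
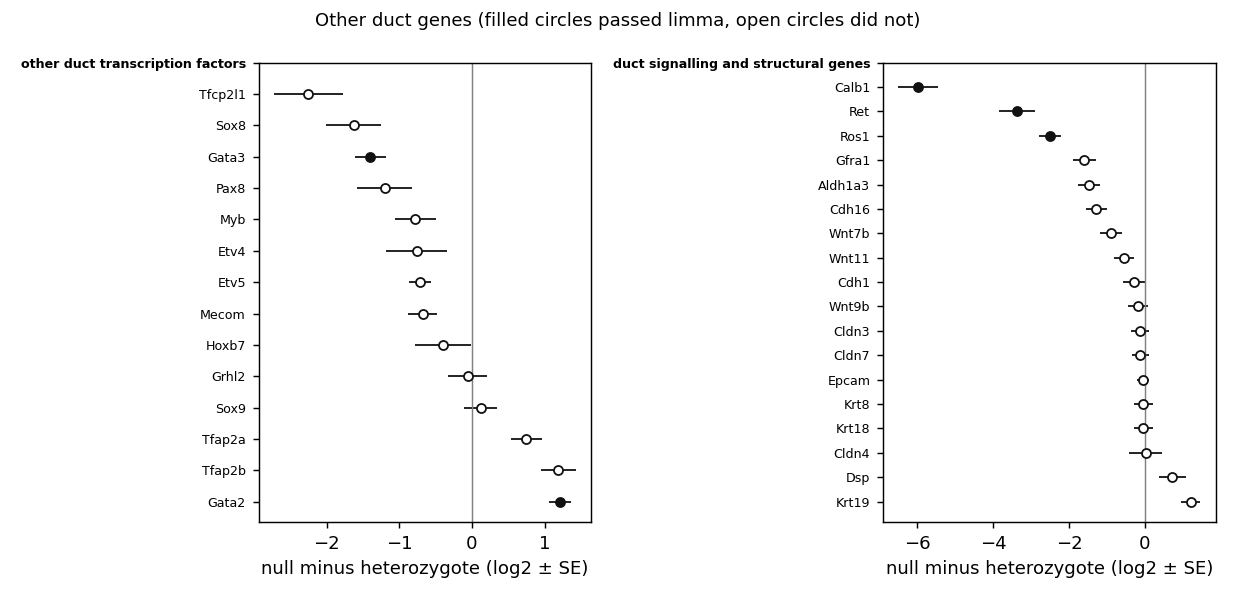
Change (null minus heterozygote, log2, with SE) of other duct transcription factors and of duct signalling and structural genes, filled where limma's adjusted p passed. Filled points run from Calb1 at -5.97 (-3.82 as the mean over its probe sets) to Gata2 at 1.21, while Epcam and Krt8 lie near 0. Tfcp2l1 at -2.25, Cdh16 at -1.28 and Krt19 at 1.21 did not pass.

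Lhx1, Emx2 and Sim1 are also known from other tissues, and the lists for those were set beside them. In the list for mesonephric tubules and early nephrons, where Lhx1 acts later, 14 other genes were measured, of which Irx1 (-1.47 ± 0.17) and Irx3 (-1.42 ± 0.24) fell and Cdh6 (1.61 ± 0.20) rose, with a median of -0.34. At an unadjusted p under 0.05 (limma), 7 of the 14 were lower and 3 higher, against 4.65% and 5.08% of all genes. Irx1 passed with each array left out, Irx3 was lost without any heterozygote, null 2 or null 3, and Cdh6 was lost without heterozygote 2 or 3. Of 10 other genes of the coelomic epithelium and gonad, where Emx2 acts, Gata6 rose by 1.41 ± 0.17, a call lost without null 1, and 9 did not pass, with a median of 0.26. At an unadjusted p under 0.05 (limma), 4 of the 10 were higher and 1 lower.

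Of 15 other spinal interneuron genes measured, 0 passed (limma over all genes), 1 was higher and 1 lower at an unadjusted p under 0.05, and the median change was -0.07. The mean over this list lay between 4.54 and 4.69 in the heterozygotes and between 4.46 and 4.66 in the nulls, and 12 of the 15 had a mean under the 33rd percentile. Those 12 included Gad1, Gad2, En1, Lbx1 and Nkx2-2, the last of which marks the precursors of Sim1-positive interneurons. The 3 genes above it were Pax8, which the duct also expresses, Evx2 (means of 5.50 and 5.54 in heterozygotes and nulls) and the inhibitory transmitter transporter gene Slc32a1 (6.84 and 6.88). Slc32a1 had a change of 0.04 ± 0.27, and its 4 probe sets ranged from -0.89 to 0.04.

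Markers of other cells were counted in the same way. Of 10 stromal genes, 6 rose and 0 fell, and their mean level lay between 7.50 and 8.31 in the heterozygotes and between 9.35 and 9.76 in the nulls. All 10 stromal genes were higher at an unadjusted p under 0.05 (limma). All 10 macrophage genes had a positive change, none passed (limma over all genes), 6 were higher at an unadjusted p under 0.05 (5.08% of all genes), and their mean level lay between 5.52 and 6.33 against 6.44 and 7.56. Of 10 genes of endoderm and cloacal epithelium, Foxa2, Trp63 and Gata6 rose and 0 fell, with mean levels of 5.17 to 5.40 against 6.24 to 6.50. At an unadjusted p under 0.05 (limma), 5 of these 10 were higher and 1 lower. Of 9 pan-neuronal genes, 2 rose and 1 fell, with 3 higher and 1 lower at an unadjusted p under 0.05 (limma), and mean levels of 6.52 to 6.84 against 6.80 to 7.35. No gene of the endothelial list (7) or the primitive erythroid list (4) passed limma, and 0 had an unadjusted p under 0.05. With the array pair as a block, where 4.56% of all genes pass, 9 stromal, 3 macrophage and 4 endodermal genes rose. With 1 array left out, the calls of Col1a2, Dcn, Lum, Gata6, Stmn2 and Elavl4 could be lost. Pdgfra, Col1a1, Col3a1, Mrc1 and Shh passed when heterozygote 1 was left out. The part of these values in the lower levels of Lhx1, Elf5, Sim1 and Emx2 was not tested.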

How the data were processed

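The deposited values are log2 expression, 1 per probe set and array. Biotin-labelled cDNA was made by NuGEN WT-Pico Ovation amplification of 10 ng RNA, per the labels' protocols. The submitters' processing notes name affy, RMA and limma without versions or settings. RMA makes the distributions of the arrays alike, which hides differences in total RNA per cell. The table held 45101 probe sets. After removal of 64 array controls, 34945 had exactly 1 symbol. Several symbols were given for 932, and 9211 were not listed, a count made before the controls were removed. The probe set with the highest mean stood for a gene, giving 18193 genes with no filter on dim ones. Levels of Pax2 are not analysed here, and the genotype labels were not checked against them.

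The genotypes were compared by lmFit and eBayes of limma 3.58.1 (R 4.3.3), two-sided and without covariates. P-values were adjusted by Benjamini-Hochberg over all 18193 genes, and genes under 0.05 passed. Errors are SD over 3 arrays for means and SE from the fit for changes. Arrays were matched into pairs by the smallest of 15 summed distances over 14 hybridization controls (0.52, the next 1.35). Median log2 values of the arrays lay between 6.12 and 6.24, and precision is limited by there being 3 arrays a genotype. The members, lists and alternatives were chosen with earlier results of these data known. Named genes are the 4 members, every gene that passed (at most 4 a list) in the lists of relatives, partners, duct, nephron, coelomic and interneuron genes, the brightest gene of a family list where none passed, fixed relatives and partners, and the 5 genes most like a member in pattern. Others are marked or named as part of a count.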

Additional observations from a re-analysis of the deposited data

How the results depend on the processing

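All 4 members kept a negative change under every alternative run. With 1 array left out the change lay between -2.68 and -2.36 for Lhx1, -2.86 and -2.03 for Elf5, -1.97 and -1.80 for Sim1, and -0.51 and -0.32 for Emx2. The mean over probe sets gave -1.57 for Sim1 and -1.98 for Elf5. The count of changed genes was 253, and 830 with the array pair as a block, and lay between 84 and 318 with 1 array left out. Leaving out heterozygote 2 or 3 gave 98 or 84, and leaving out null 1 or 2 gave 86 or 110. With the array pair as a block, the counts without members were 1 for the Elf and ESE subfamily, 1 for bHLH-PAS factors, 9 for duct transcription factors, 7 for duct signalling and structural genes, 5 for early nephron genes and 3 for coelomic genes. Duct signalling and structural genes gave 5 with an intensity-dependent prior and 6 with the mean over probe sets, which gave 0 for LIM cofactors. With 1 array left out, LIM cofactors gave 0 to 2, duct transcription factors 0 to 3, duct signalling and structural genes 2 to 5, early nephron genes 1 to 3 and coelomic genes 0 to 2. The cause of these shifts was not tested. The labels pair no samples, and the array pairs used as a block come from the control probe sets alone. Signal near background limits Elf5 most.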
